A study of Mus musculus with 51 samples.

Results

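The laminins and integrins are described here across mouse gonads with and without *Dmrt1*. The members are all rows of the count table named as a laminin alpha, beta or gamma chain or as an integrin alpha or beta subunit, 37 of 55401 genes. They comprise 11 laminin genes, 18 integrin alpha genes and 8 integrin beta genes, and the rule that selects them uses gene names alone. Messenger RNA was sequenced in 30 libraries, 3 in each of 10 groups of mice on a mixed 129Sv and C57Bl/6J background. The paper describes the P28 and P3 gonads of these genotypes as XY, and its Sertoli cells came from testes. P28 gonads were wild-type (*Dmrt1*+/+), *Dmrt1*+/-, *Dmrt1*-/- or *Dmrt1* R111G/+, where R111G is an edited allele with a changed residue in the DNA-binding domain. P3 gonads were *Dmrt1*+/-, *Dmrt1*-/-, R111G/+ or R111G/-, and none of the P3 groups was wild-type. P7 Sertoli cells carried CAG-Stopflox-tdTomato and Dhh-Cre, with either 2 floxed *Dmrt1* alleles (titled -/-) or 1 (the control, titled +/+ but with f/+ as its genotype). Dhh-Cre acts in Sertoli cells and other *Dhh* lineages, tubules of 2 mice shared a tube in the Sertoli preparation, and the null and R111G/+ gonads share 1 set of *Dmrt1*+/- controls at each age.

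Laminins are trimers of an alpha, a beta and a gamma chain that polymerise into the sheet of every basement membrane. Integrins are pairs of an alpha and a beta subunit that span the cell membrane, and the alpha subunit largely sets whether the pair binds laminin, collagen, RGD ligands such as fibronectin and vitronectin, or the ligands of leukocytes. In the testis, Sertoli cells and peritubular myoid cells lay down the basement membrane of the tubule, and germ line stem cells are known to carry *Itga6* and *Itgb1* on their surface.

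Counts per library summed to between 5043838 and 12792811. *Dmrt1* checked the labels: it was at 0.161 to 0.435 CPM (counts scaled to a fixed library size, by TMM within an age) in the P28 null libraries against 29.2 to 59.1 in *Dmrt1*+/-, and at 22.2 to 38.2 in the P7 null cells against 172 to 270 in the control. At P28 the summed level of 19 germ cell markers was 17567 to 21294 CPM in wild-type, 5865 to 21629 in *Dmrt1*+/-, 223 to 320 in null and 1671 to 1905 in R111G/+ gonads. The lowest of the *Dmrt1*+/- values was replicate 3. Lists of other cells moved as well: the 13 endothelial markers summed to 73.8 to 91.0 CPM in wild-type and 674 to 767 in null gonads, and the 12 stromal markers to 695 to 1116 and 5920 to 6992. The 14 granulosa markers summed to 16.2 to 24.6 and 1948 to 2465 CPM, and the 17 Sertoli markers to 1042 to 1134 and 1318 to 1469. In whole gonads, fewer cells of a type and less RNA per cell cannot be told apart, and the part of these lists in the results was not tested. All p-values measure the spread between the 3 libraries of a group.

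At P28 the sign or the call of many changes depends on how libraries are scaled. Relative to TMM, scaling on 4 somatic lists (macrophage, endothelial, peritubular myoid and stromal) moved the median log2 fold change of all genes between null and wild-type gonads from -0.31 to -2.36, whereas scaling on the library total moved it to 0.01. Several of these lists themselves rose under TMM. The median of the members stood 1.49 above that of all genes by TMM, a gap that rescaling leaves nearly as it is by construction.

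*Dmrt1*-/- gonads at P28 were compared with wild-type to ask how matrix and receptor genes stand in gonads that have lost *Dmrt1*. *Itga5*, *Itga6* and *Lama4* were higher, by 10.8-, 10.2- and 9.30-fold, and *Itgae*, *Itgad* and *Lamb3* were lower, and these 6 calls held in all 12 alternatives of the analysis. A gene was called at an adjusted p below 0.05 (edgeR quasi-likelihood test, Benjamini-Hochberg over all genes) and a change above 2-fold. Of 34 members tested, 19 were called higher and 3 lower (55.9% and 8.82%) by TMM, but 3 higher and 15 lower when scaled on the somatic lists. Over all 20952 genes the background was 26.1% higher and 40.5% lower by TMM. On the somatic scale it was 710 genes higher and 15174 lower. The median log2 fold change was 1.18 over the members and -0.31 over all genes. *Itgb6*, *Itgax* and *Itgb7* had too few counts for a test at P28.

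Among the laminin alpha chains, *Lama1*, a chain typical of embryonic and testicular basement membranes, was at 17.4, 17.8 and 20.0 CPM in the wild-type libraries, 26.8, 23.5 and 38.7 in *Dmrt1*+/-, 89.0, 95.5 and 97.7 in null, and 39.7, 56.9 and 72.7 in R111G/+ gonads. No 2 of these groups overlapped, with null highest and wild-type lowest. The log2 fold change between null and wild-type was 2.35 (SE 0.23, adjusted p = 7.84e-07) by TMM, and 0.26 on the somatic scale, where the call was lost (edgeR, adjusted p = 0.563). *Lama4*, a chain of vessel walls, was at 8.99, 5.03 and 6.46 CPM in wild-type, 8.65, 7.99 and 6.33 in *Dmrt1*+/-, 66.8, 64.9 and 59.9 in null and 9.73, 8.97 and 10.4 in R111G/+ gonads. Only the null group stood apart by a wide margin (log2 fold change 3.22, SE 0.22, adjusted p = 2.87e-08). *Lama3* and *Lama5*, alpha chains known from epithelia, were called higher by TMM at 1.57 and 1.25 but had values of -0.49 and -0.86 on the somatic scale. *Lama2*, the chain of muscle, had an adjusted p of 0.00031 at a log2 fold change of 0.95, under 2-fold.

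The chains that assemble with them did not move as a block. *Lamb1*, a beta chain shared by many laminins, was at 65.9, 45.0 and 41.5 CPM in wild-type, 57.6, 98.8 and 84.4 in *Dmrt1*+/-, 240, 234 and 272 in null and 187, 149 and 152 in R111G/+ gonads. *Lamc1*, the commonest gamma chain, was at 61.9, 44.5 and 47.1, then 66.6, 81.6 and 99.9, then 310, 333 and 341, and then 152, 130 and 153 CPM in the same order of groups. For both genes the null libraries lay above all others, the R111G/+ libraries lay between, and wild-type and *Dmrt1*+/- overlapped for *Lamb1* only. The log2 fold changes between null and wild-type were 2.29 for *Lamb1* (SE 0.23, adjusted p = 7.2e-07) and 2.68 for *Lamc1* (SE 0.19, adjusted p = 3.33e-08). On the somatic scale both genes lost the call. *Lamb2* (0.53) and *Lamc3* (-0.27) were not called.

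**Figure D1:**
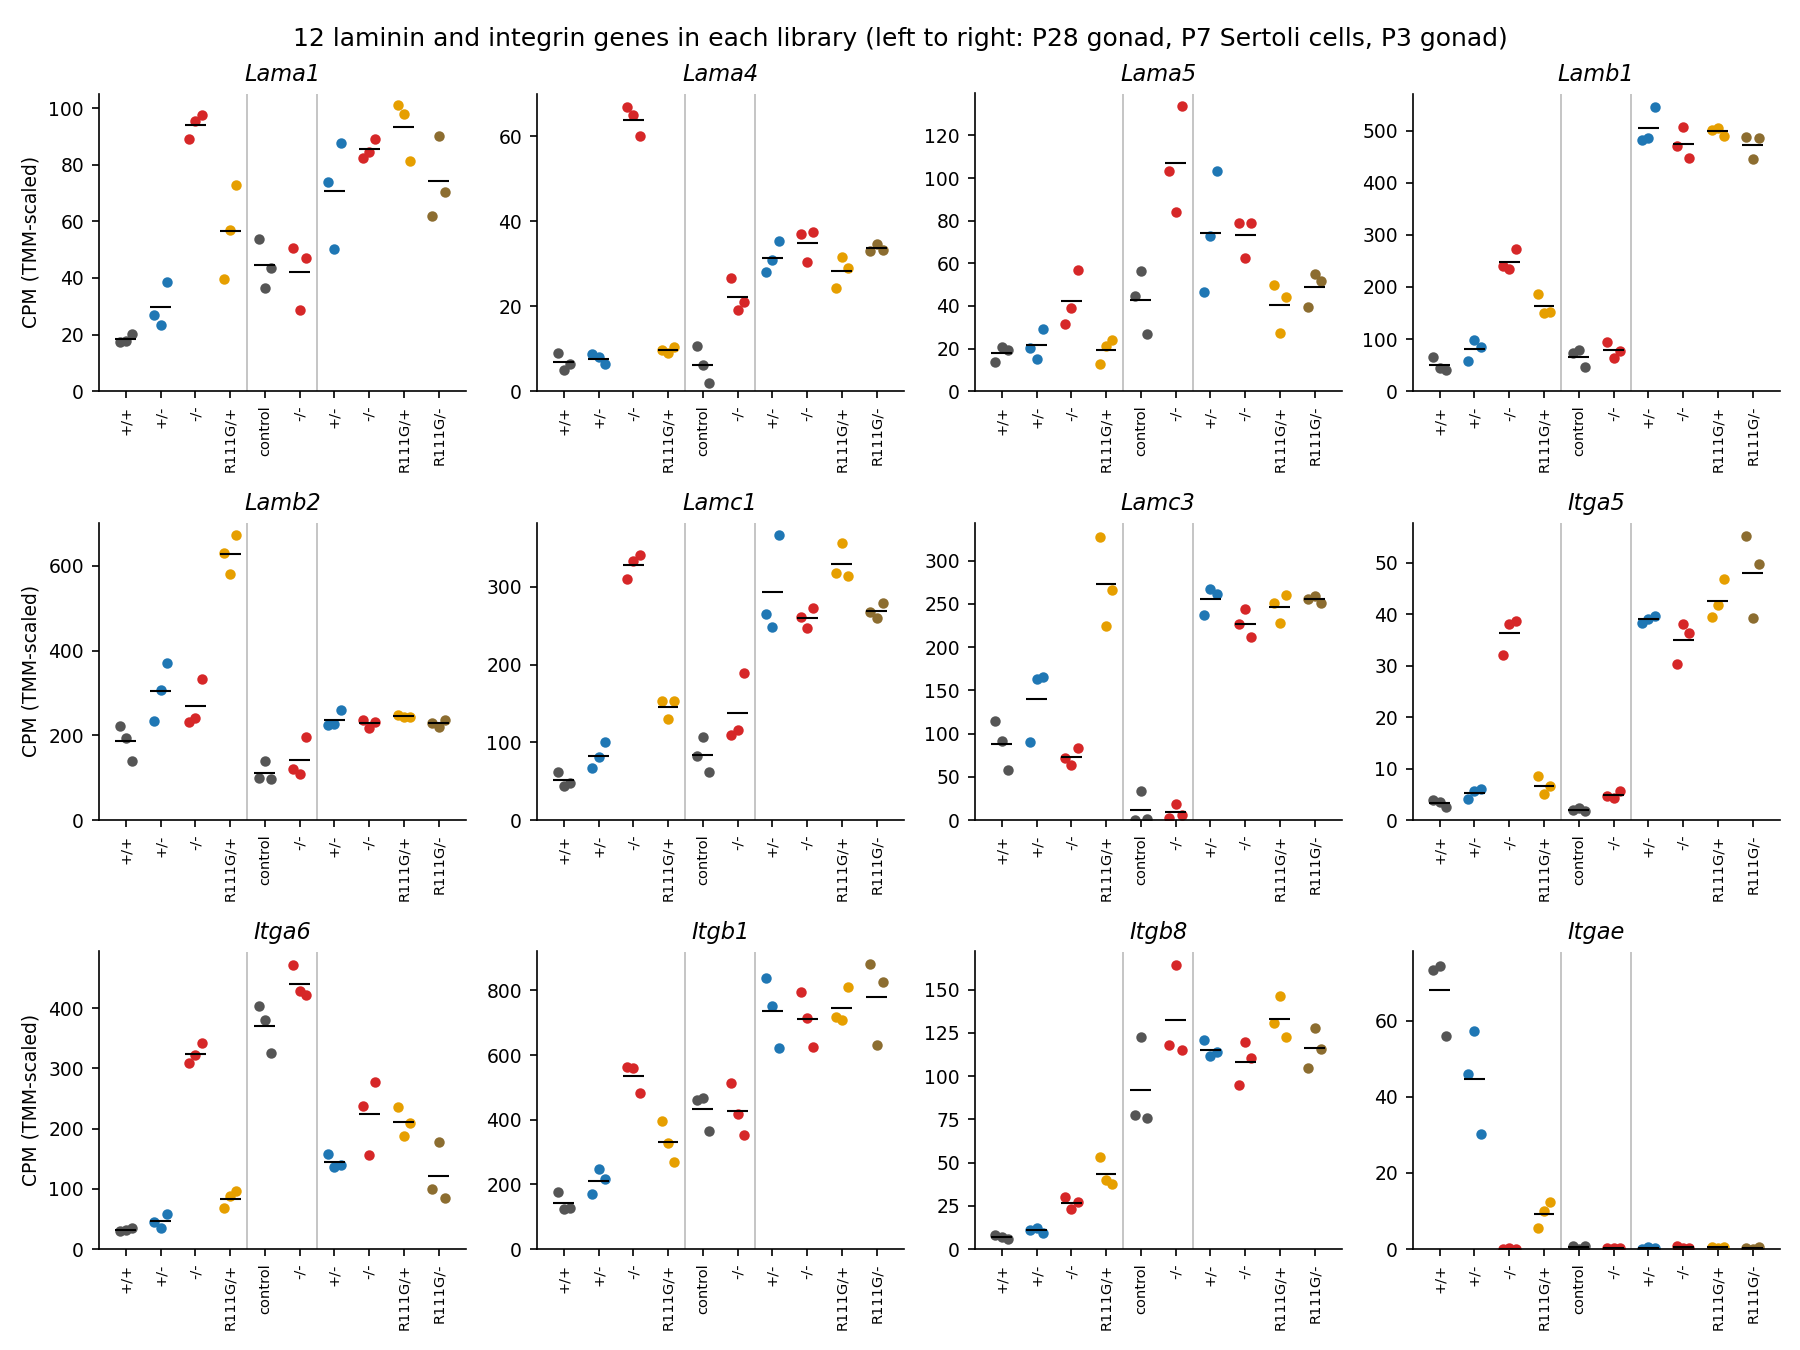
Level of 12 members in each of 30 libraries, in CPM scaled by TMM within each age (linear axes from 0; points are libraries, bars are group means; levels of different ages come from separate scalings). *Lama4*, *Itga5* and *Itga6* stand highest among the P28 groups in null gonads, *Lamb2*, *Lamc3* and *Itgb8* in R111G/+ gonads, and *Itgae* in wild-type gonads. On the somatic scale *Itgb1* was not called between null and wild-type gonads (log2 fold change -0.13, edgeR adjusted p = 0.668).

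A share within a library does not depend on how libraries are scaled, so the share of each chain in the summed level per kb of its class was also computed, a measure added after the counts had been seen. *Lamc1* made up 30.5% ± 5.7 (SD, n = 3) of the gamma chains in wild-type and 76.7% ± 2.4 in null gonads, while *Lamc3*, a gamma chain of more restricted tissues, went from 68.8% ± 5.8 to 23.1% ± 2.4. The *Lamc1* share ranged from 26.3% to 37.0% over the wild-type and from 74.9% to 79.4% over the null libraries, so the groups were far apart. *Lamb1* accounted for 14.0% ± 1.7 of the beta chains in wild-type and 36.5% ± 2.9 in null gonads, with *Lamb2* at 83.3% ± 1.4 and 63.4% ± 2.9. Among the alpha chains *Lama4* went from 7.92% ± 2.11 to 21.5% ± 3.1 and *Lama1* from 26.8% ± 1.9 to 39.3% ± 2.7, whereas *Lama2* went from 40.6% ± 4.9 to 22.3% ± 2.9. None of these 7 shares overlapped between the groups. Each gave the smallest p that 3 against 3 libraries allow in an exact two-sided permutation test (p = 0.1), which cannot pass the threshold. Over all 162 comparisons of shares, 71 reached that p, and the smallest adjusted p was 0.228.

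**Figure D2:**
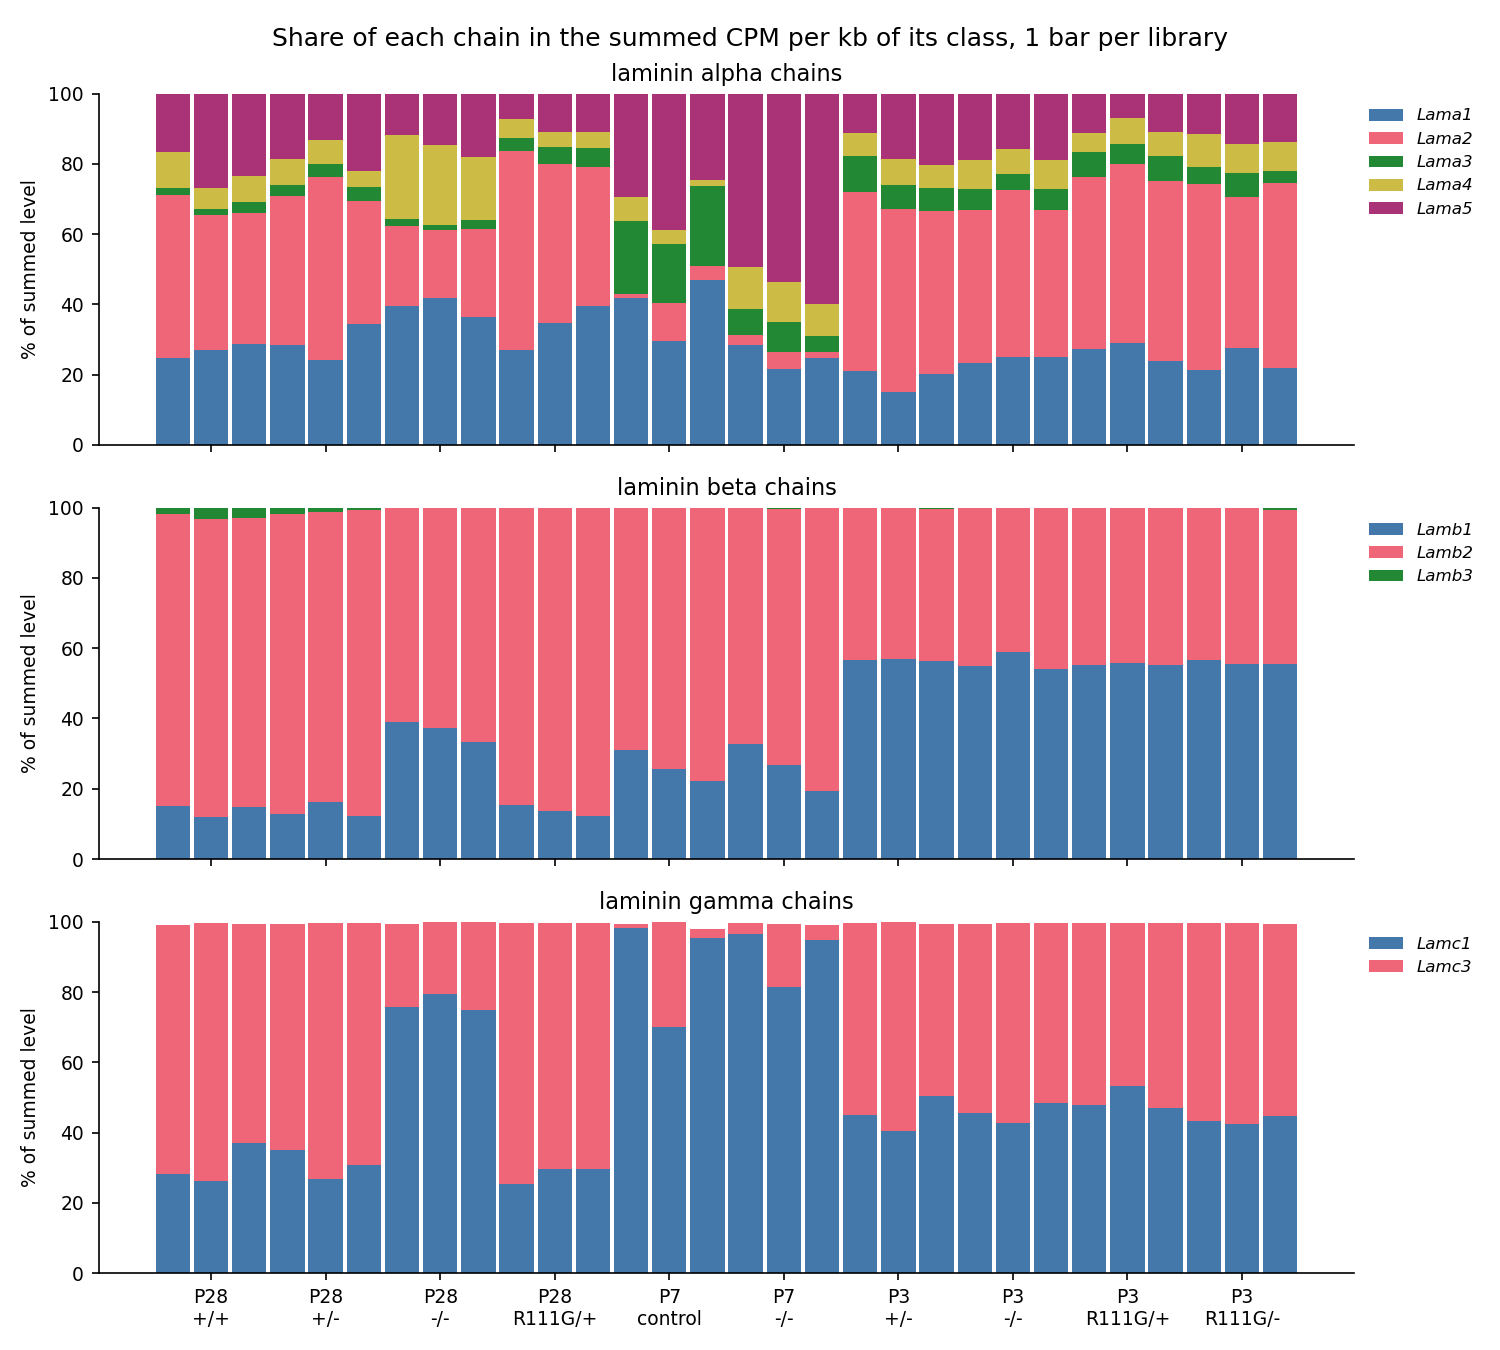
Share of each laminin chain in the summed CPM per kb of exon of its class, in percent, 1 stacked bar per library and 3 bars per group; shares of chains outside the legend are left blank. *Lamc1* and *Lamb1* take larger shares in P28 null gonads (76.7% and 36.5% on average) than in the other P28 groups, and *Lama5* a smaller one in R111G/+ (7.23% to 11.1%) than in *Dmrt1*+/- gonads (13.3% to 22.1%); the second P7 control bar holds more *Lamc3* than the others.

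Of the laminin-binding integrin subunits, *Itga6*, which pairs with *Itgb1* or *Itgb4*, was at 29.9, 31.3 and 34.6 CPM in wild-type, 44.7, 35.7 and 57.9 in *Dmrt1*+/-, 308, 322 and 343 in null and 67.6, 88.3 and 95.7 in R111G/+ gonads. Again no 2 groups overlapped, and the null libraries lay far above the rest (log2 fold change against wild-type 3.34, SE 0.20, adjusted p = 1.08e-08). *Itga6* took 59.1% ± 3.0 of the summed level per kb of *Itga3*, *Itga6* and *Itga7* in wild-type and 91.3% ± 0.4 in null gonads. The share of *Itga7*, the laminin receptor of muscle, was 24.4% ± 2.2 and 2.30% ± 0.64. *Itga3* was called higher at 1.34 by TMM and had a value of -0.70 on the somatic scale.

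*Itgb1*, the beta subunit shared by most matrix-binding integrins, had the highest level per kb of all members in 9 of the 10 groups. It was at 178, 125 and 127 CPM in wild-type, 170, 247 and 216 in *Dmrt1*+/-, 562, 559 and 482 in null and 396, 330 and 271 in R111G/+ gonads. The null and R111G/+ libraries did not overlap with any others, while wild-type and *Dmrt1*+/- did. Its log2 fold change between null and wild-type was 1.90 (SE 0.21, adjusted p = 1.95e-06) by TMM and -0.13 on the somatic scale (adjusted p = 0.668), so its call depends on the scaling.

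Of the RGD-binding subunits, *Itga5*, the fibronectin receptor, was at 3.85, 3.61 and 2.58 CPM in wild-type, 4.11, 5.57 and 6.00 in *Dmrt1*+/-, 32.0, 38.1 and 38.6 in null and 8.56, 5.02 and 6.55 in R111G/+ gonads. All null libraries lay several times above all others (log2 fold change against wild-type 3.43, SE 0.27, adjusted p = 8.01e-08). Within the RGD-binding alpha subunits *Itga5* went from 13.6% ± 1.9 of the summed level per kb to 38.1% ± 0.1. *Itgav*, which pairs with several beta subunits, was called higher at 1.98, and its partners *Itgb3*, *Itgb5* and *Itgb8* at 1.83, 1.12 and 1.93, but these 4 had values of -0.05, -0.25, -0.94 and -0.08 on the somatic scale. *Itga8* (-0.19) and the platelet subunit *Itga2b* (-0.63) were not called.

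Promoters are shown for *Itga5*, which had the largest rise, and *Lamb1*, which was called higher against *Dmrt1*+/- in both mutants by TMM. The windows run from 250 bases before to 50 after the transcription start (RefSeq, GRCm38.p6), at chr15:103366742-103367041 on the minus strand and chr12:31265043-31265342 on the plus strand. Capitals mark GC boxes (GGGCGG, here as its reverse complement CCGCCC).
Itga5: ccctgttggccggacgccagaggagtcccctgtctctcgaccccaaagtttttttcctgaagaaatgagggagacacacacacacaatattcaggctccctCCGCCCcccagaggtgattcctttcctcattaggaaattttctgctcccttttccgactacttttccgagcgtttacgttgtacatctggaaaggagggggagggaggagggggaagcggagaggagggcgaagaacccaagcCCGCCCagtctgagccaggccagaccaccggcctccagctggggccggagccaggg
Lamb1: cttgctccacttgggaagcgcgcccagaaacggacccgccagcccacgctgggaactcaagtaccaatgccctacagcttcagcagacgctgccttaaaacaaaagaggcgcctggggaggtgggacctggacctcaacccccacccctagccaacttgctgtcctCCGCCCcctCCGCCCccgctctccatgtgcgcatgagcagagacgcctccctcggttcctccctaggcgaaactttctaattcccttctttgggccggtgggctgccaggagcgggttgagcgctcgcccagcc
Of 26 promoters of 23 members in the table, 12 held GGGCGG on either strand, against 35.7% of all 32851 promoters. None of the 26 held AAGGTCA, a site of NR5A receptors (4.72% of all promoters), GTAAACA, the forkhead core (3.65%), or ACATTGT, the core of the DMRT1 motif (2.96%). These are counts of letters in a window and were not tested.

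The other subunits are given by ligand class. *Itga9* (2.12) and *Itga4* (1.36), which bind tenascin, osteopontin or VCAM1, were called higher by TMM, at values of 0.12 and -0.69 on the somatic scale. Of the collagen-binding alpha subunits only *Itga11* was called, at 1.02 by TMM and, the other way, at -1.10 on the somatic scale, and *Itga1* (-0.19), *Itga2* (-0.50) and *Itga10* (0.15) were not called. The leukocyte subunits *Itgam* and *Itgb2*, which form a complement receptor of macrophages and neutrophils, were called higher at 1.52 and 1.38 but had values of -0.50 and -0.62 on the somatic scale. Beside them, 12 of 15 macrophage markers were called higher and 1 lower by TMM, and *Itgam* shares 68.7% of its exon bases with *Gm49368* on the same strand, so its value is uncertain. *Itgal* (0.05) and *Itgb4* (0.83) were not called.

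The members called lower were *Itgae*, *Itgad* and *Lamb3*. *Itgae*, which pairs with *Itgb7* to bind E-cadherin on T cells of epithelia, was at 73.3, 74.4 and 56.1 CPM in wild-type, 46.1, 57.3 and 30.2 in *Dmrt1*+/-, 0.109, 0.198 and 0 in null and 5.58, 9.98 and 12.4 in R111G/+ gonads. The groups did not overlap except wild-type and *Dmrt1*+/-, and *Itgb7* itself had too few counts for a test. The null libraries held 3 counts together against 1696 in wild-type, a ratio of 721-fold lower with an exact 95% counting interval from 246 to 3500. *Haspin*, a kinase of germ cells that lies within *Itgae* on the opposite strand, was at 1313 ± 118 CPM (SD, n = 3) in wild-type, 832 ± 258 in *Dmrt1*+/-, 7.48 ± 1.21 in null and 137 ± 74 in R111G/+ gonads. The order of groups was that of *Itgae*. No exon bases shared by *Itgae* and *Haspin* were found in the annotation, and whether reads of 1 gene contribute to the other was not tested.

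*Itgad*, a leukocyte alpha subunit, was at 13.2, 11.7 and 12.7 CPM in wild-type, 3.67, 11.9 and 2.53 in *Dmrt1*+/-, 0, 0.0990 and 0.0807 in null and 0.360, 1.27 and 0.589 in R111G/+ gonads. The null libraries held 2 counts against 312 in wild-type, 199-fold lower with an interval from 54.6 to 1650. *Lamb3*, the beta chain of epithelial laminin, was at 5.46, 7.74 and 5.68 CPM in wild-type, 5.16, 4.94 and 3.12 in *Dmrt1*+/-, 0.217, 0.594 and 0.645 in null and 0.630, 0.536 and 1.40 in R111G/+ gonads. For both genes the mutants lay below the other groups without overlap (*Lamb3*, null against wild-type -3.63, SE 0.47, adjusted p = 8.95e-06). In the same comparison 17 of 19 germ cell markers were called lower and 1 higher.

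**Figure D3:**
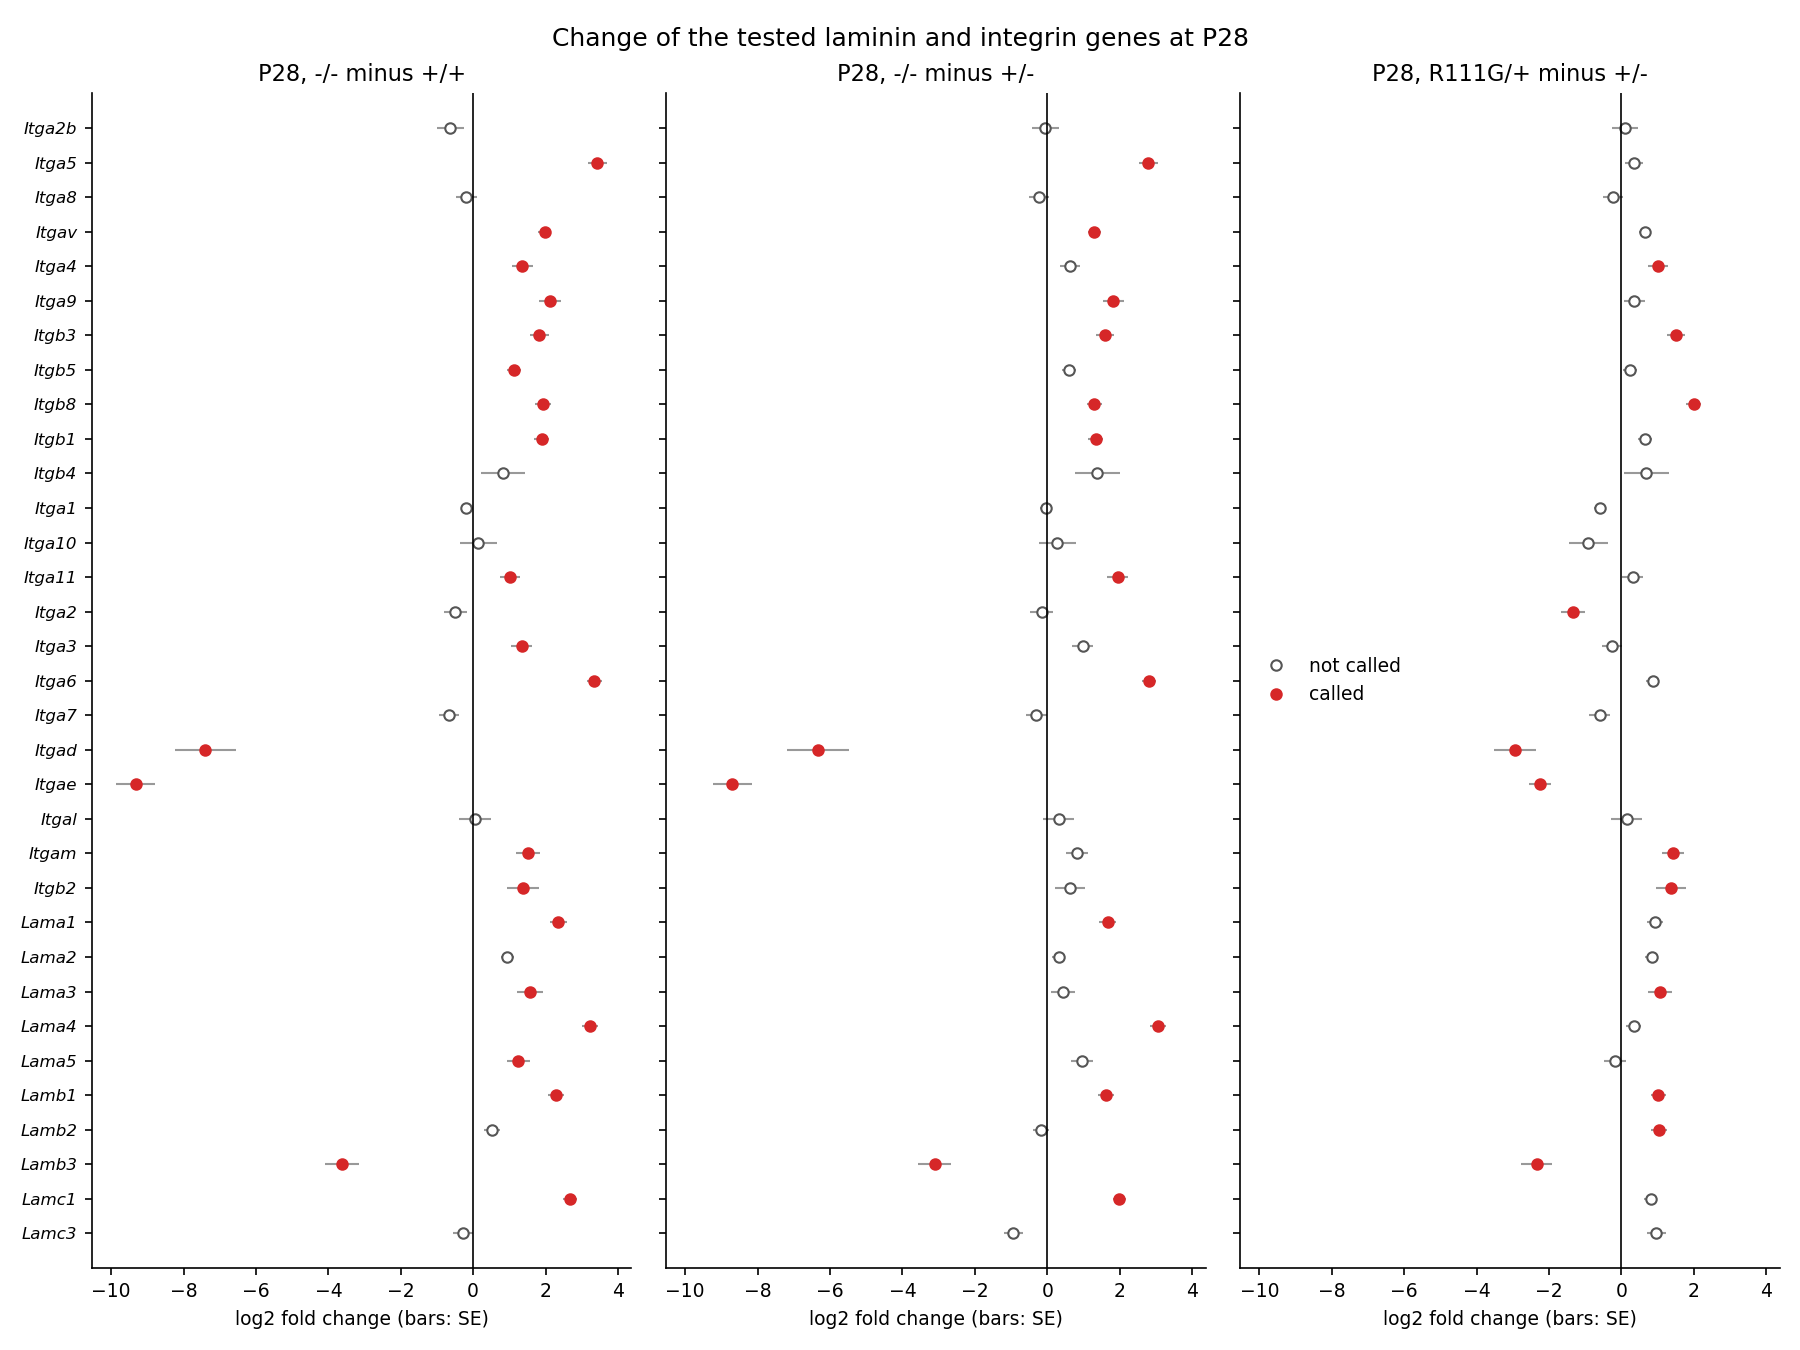
Log2 fold change (point) and its SE (line) of 33 of the 34 members tested at P28, for null against wild-type, null against *Dmrt1*+/- and R111G/+ against *Dmrt1*+/- gonads, scaled by TMM; filled points passed an adjusted p below 0.05 and 2-fold. Most called members lie to the right (19, 12 and 8) and *Itgad*, *Itgae* and *Lamb3* far to the left in all panels. On the somatic scale 3, 3 and 1 members were called higher and 15, 13 and 9 lower. Over all genes 710, 675 and 91 were higher and 15174, 14210 and 9562 lower on that scale.

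Heterozygosity for the null allele changed no member past the threshold. In *Dmrt1*+/- against wild-type gonads 0 of 34 members were called by edgeR, against a background of 0% of all genes. An unadjusted p below 0.05 was reached by 15 of the 34 members and by 3769 of all 20952 genes. DESeq2 called 0 of 37 members beside 26 genes higher and 5 lower. By edgeR the median log2 fold change was 0.33 over the 34 members, against -0.05 over all genes. *Lama1* and *Itga6*, whose 3 heterozygous libraries lay above the 3 wild-type ones, had values of 0.69 and 0.53 (adjusted p = 0.21 and 0.22).

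Against *Dmrt1*+/-, null gonads had 12 of 34 members called higher and 3 lower by TMM, beside a background of 19.8% and 38.7%. On the somatic scale 3 members were higher and 13 lower, beside 675 and 14210 of all genes. *Lama4*, *Itga6* and *Itga5* again led at 3.06, 2.81 and 2.79 (adjusted p = 5.16e-08, 4.39e-08 and 4.16e-07), and stayed higher on the somatic scale at 1.47, 1.22 and 1.25. *Lamc1* followed at 1.99 and *Itga11* at 1.95. *Itga11*, a collagen receptor of fibroblasts, was at 4.39, 6.19 and 6.72 CPM in wild-type, 4.02, 2.10 and 2.87 in *Dmrt1*+/-, 12.5, 11.4 and 11.1 in null and 2.88, 4.08 and 4.20 in R111G/+ gonads. *Itga9* was at 29.3, 19.3 and 19.8, then 22.4, 38.1 and 23.9, then 113, 89.1 and 95.6 CPM in the same order, and between 26.3 and 53.6 in R111G/+ gonads. For both genes the null libraries lay above all others, and for *Itga11* the wild-type libraries lay above *Dmrt1*+/- and R111G/+.

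R111G/+ gonads at P28 were compared with *Dmrt1*+/- to ask how a single edited allele differs from a single missing one. *Itgb8* was higher by 3.98-fold and *Itga2*, *Itgad*, *Itgae* and *Lamb3* were lower, and these 5 calls held in all alternatives. In all, 8 of 34 members were called higher and 4 lower by TMM, against 6.72% and 28.1% of all genes. On the somatic scale 1 member was higher and 9 were lower, against 91 and 9562 of all genes. The median was 0.35 over the members (0.46 to 0.54 with 1 library left out) and -0.17 over all genes. *Itgb8*, which with *Itgav* activates latent TGF-beta, was at 8.35, 6.96 and 5.81 CPM in wild-type, 11.2, 12.3 and 9.29 in *Dmrt1*+/-, 30.0, 23.3 and 27.4 in null and 53.2, 39.8 and 37.6 in R111G/+ gonads. The groups did not overlap, and R111G/+ was highest (log2 fold change 1.99, SE 0.21, adjusted p = 2.5e-05, and 1.13 on the somatic scale).

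*Itgb3*, the vitronectin receptor subunit, was at 5.94, 10.9 and 10.6 CPM in *Dmrt1*+/-, 21.4, 28.5 and 33.3 in null and 24.1, 23.6 and 30.0 in R111G/+ gonads. Both mutants lay above the heterozygous libraries and overlapped each other (R111G/+ 1.50, SE 0.25, adjusted p = 3.49e-04). *Lamb2*, a beta chain of the mature tubule wall and of muscle, was at 223, 194 and 140 CPM in wild-type, 233, 308 and 370 in *Dmrt1*+/-, 231, 241 and 334 in null and 631, 581 and 673 in R111G/+ gonads. The R111G/+ libraries lay above all others and the wild-type libraries below (R111G/+ against *Dmrt1*+/- 1.05, SE 0.22, adjusted p = 0.00174), and *Lamb1* was called beside it at 1.02. *Lama3* was at 6.03, 8.50 and 11.0 CPM in R111G/+ against 3.23, 4.00 and 4.98 in *Dmrt1*+/- gonads, a change of 1.07.

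Leukocyte subunits formed the rest of the rise. *Itgam* was at 12.1, 6.09 and 7.73 CPM in R111G/+ and 2.71, 3.58 and 3.29 in *Dmrt1*+/- gonads (1.43), and *Itgb2* at 18.2, 7.03 and 10.2 against 3.50, 6.21 and 4.05 (1.36). *Itga4* was called at 1.01. Replicate 1 was the highest R111G/+ library for these genes, and the 15 macrophage markers summed to 2478 CPM in it against 1069 and 1149 in the other R111G/+ libraries and 646 to 982 in *Dmrt1*+/-, with 13 of 15 called higher and 1 lower. Without replicate 1, *Itgam* was at 1.26 and *Itgb2* at 1.06, both still called, and *Itga4* at 0.73 was not. The count of members called higher was 4 without *Dmrt1*+/- replicate 1, beside 787 of all genes. *Itgb2*, *Lama3*, *Lamb1* and *Lamb2* lost the call there. *Lamc3* (0.97), *Lama1* (0.93), *Itga6* (0.86), *Lamc1* (0.81) and *Itgb1* (0.66) had adjusted p below 0.05 at less than 2-fold, and *Itga2*, a collagen receptor, was called lower at -1.33.

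The 2 mutants were then compared directly, since their folds against *Dmrt1*+/- share control libraries. R111G/+ gonads had 9 of 34 members called lower and 4 higher than null gonads by TMM, against 10.1% and 27.6% of all genes. On the somatic scale 3 members were lower and 10 higher, against 863 and 8903 of all genes. The member median was -0.33 and that of all genes 0.18, but they were -0.02 and 0.45 without null replicate 3 and -0.19 and 0.42 without R111G/+ replicate 1. *Lama4* (-2.72), *Itga5* (-2.44) and *Itga6* (-1.95) were lower under both scalings. *Lamc3* was higher at 1.91 (SE 0.28, adjusted p = 8.06e-05) and *Lamb2* at 1.23, under both scalings. *Lamc3*, chosen for listing after its values were seen, was at 115, 91.0 and 58.4 CPM in wild-type, 89.9, 163 and 166 in *Dmrt1*+/-, 71.4, 63.3 and 83.9 in null and 328, 225 and 266 in R111G/+ gonads. Its share of gamma chains was 71.4% ± 2.5 in R111G/+ and 68.7% ± 4.3 in *Dmrt1*+/- gonads, and the *Lamc1* share was 28.3% ± 2.5 and 30.9% ± 4.2. These differences were larger than the SD of the R111G/+ and smaller than that of the *Dmrt1*+/- libraries, and the groups overlapped. The summed endothelial markers were at 109 to 180 CPM in R111G/+ against 89.7 to 118 in *Dmrt1*+/- gonads, and none of 13 was called. *Itgae* was higher in R111G/+ than in null gonads by a ratio of 101 (counting interval 34.3 to 492), and *Itgad* by 12.4 (3.16 to 107).

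**Figure D4:**
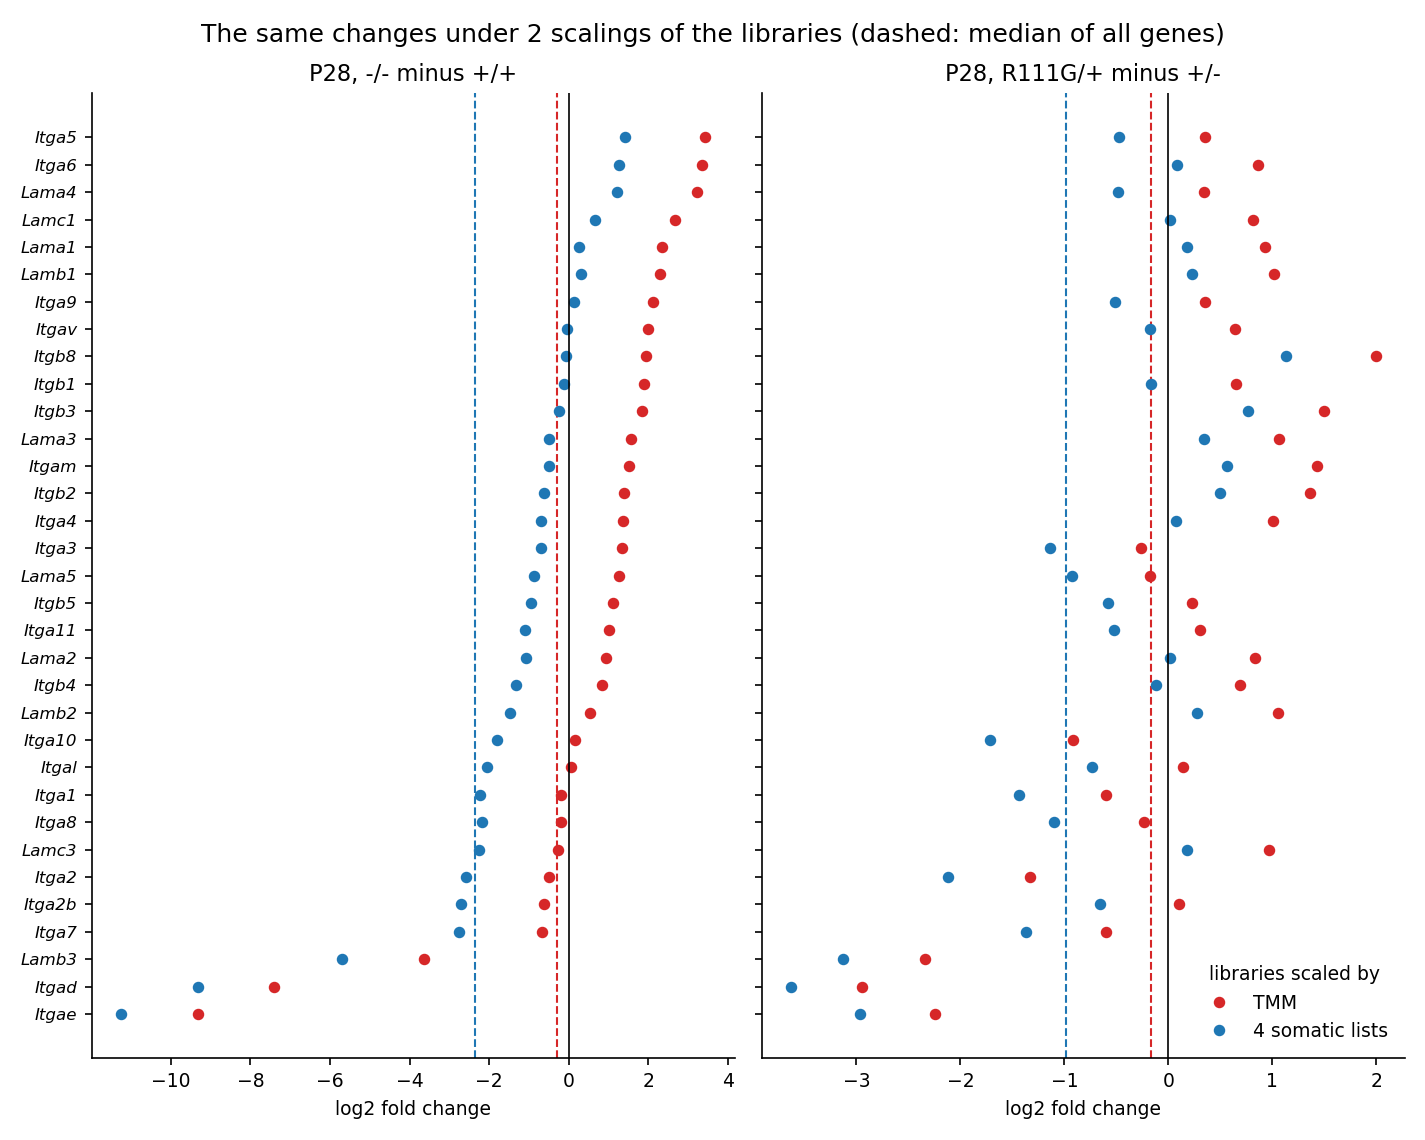
Log2 fold change of 33 of the 34 tested members under TMM (red) and under scaling on the 4 somatic marker lists (blue), for null against wild-type (left) and R111G/+ against *Dmrt1*+/- gonads (right); dashed lines are the median of all genes under each scaling. Every point shown shifts left on the somatic scale, and the order of the members stays nearly the same; *Itga5*, *Itga6* and *Lama4* on the left and *Itgb8* on the right are the members called higher under both.

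Partners of these proteins, from lists of other matrix and adhesion genes, gave the wider picture. Between null and wild-type gonads, 14 of 18 basement membrane partners were called higher and none lower by TMM (median 1.68), but 1 higher and 4 lower on the somatic scale (median -0.34), a setting tried on these lists after the data had been seen. Over all 20952 genes 26.1% were higher and 40.5% lower by TMM, and 710 and 15174 genes on the somatic scale. Called under both was *Smoc2*, a matricellular protein (3.83 by TMM), while *Col15a1* (2.73), the heparan sulfate proteoglycan *Agrn* (2.06) and the laminin-collagen linker *Nid1* (1.67) were called by TMM alone. Of 14 other integrin ligands tested, 10 were higher and none lower by TMM, or 1 and 4 on the somatic scale, with fibronectin *Fn1* at 2.90 and vitronectin *Vtn* at 3.40 by TMM. Of 7 other laminin receptors, 6 were higher by TMM, with *Bcam* at 3.03 and dystroglycan *Dag1* at 1.57, against 1 higher and 1 lower on the somatic scale. Among 19 adaptors, 11 were higher and 3 lower by TMM but 0 and 8 on the somatic scale, and the talin *Tln2* (-1.69) and *Itgb1bp1* (-2.00) were lower under both. Between R111G/+ and *Dmrt1*+/- gonads the counts by TMM were 2 of 18 higher, 3 of 14 higher and 2 lower, 1 of 7 higher and, for the adaptors, 1 of 19 higher and 1 lower, beside 6.72% and 28.1% of all genes. On the somatic scale they were 1 higher and 2 lower, 0 and 4, 0 and 0, and 0 and 3, beside 91 and 9562 of all genes. *Npnt*, a ligand of integrins with *Itga8*, was higher there at 2.38, and tenascin *Tnc* was lower at -2.44, and both were called under both scalings.

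In P7 Sertoli cells, loss of *Dmrt1* was accompanied by a change of laminin alpha chains. *Lama5* was higher, at 103, 84.2 and 134 CPM in null against 44.7, 56.2 and 26.8 in control cells (2.52-fold, log2 fold change 1.33, SE 0.28, adjusted p = 0.031). *Lama3* was lower, at 14.7, 12.8 and 10.1 against 29.8, 23.3 and 23.2 CPM (log2 fold change -1.02, SE 0.23, adjusted p = 0.038). The groups did not overlap for either gene. These were the only members called of 23 tested, 1 higher and 1 lower, against 2.56% and 2% of all 14013 genes. The call of *Lama5* was lost when any of 4 of the 6 libraries was left out (adjusted p 0.0172 to 0.113) and with a replicate block (0.067), and that of *Lama3* in 5 of 6 (0.0454 to 0.142).

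Within the alpha chains of P7 cells, *Lama5* made up 54.3% ± 5.4 of the summed level per kb in null and 31.0% ± 7.1 in control cells, *Lama1* 24.9% ± 3.4 and 39.5% ± 9.0, *Lama3* 6.95% ± 1.96 and 20.2% ± 2.9, and *Lama4* 10.8% ± 1.7 and 4.13% ± 2.48. *Lama4* was between 19.1 and 26.7 in null cells against 10.7, 6.05 and 2.02 CPM, not called by edgeR (log2 fold change 1.82, adjusted p = 0.07) but called by DESeq2. *Itga6* was at 472, 428 and 421 CPM in null and 403, 381 and 325 in control cells, *Lama1* at 50.4, 28.7 and 46.9 against 53.9, 36.5 and 43.3, and *Itgb1* at 513, 417 and 352 against 461, 468 and 367. None of these 3 was called, and all but *Itga6* overlapped. Control replicate 2 held 33.8 CPM of *Lamc3* against 0.715 and 1.30 in the other control libraries, and the peritubular myoid list summed to 231, 481 and 286 CPM in the control against 64.0 to 122 in null cells. The part of these lists in the result was not tested. The other 14 members had too few counts for a test.

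In P3 gonads no member was called in any of 3 comparisons. Of 31 members tested, null against *Dmrt1*+/- gave 9 with an unadjusted p below 0.05, R111G/+ 3 and R111G/- 4. Over all 15837 genes 1397, 913 and 1069 had such a p. DESeq2 called only *Itga8*, lower in null gonads (edgeR -1.53, adjusted p = 0.135), where it called 54 of all genes higher and 73 lower. The background of called genes was 0.511%, 0.133% and 0.196% of 15837, and the member medians were -0.05, 0.05 and -0.05, each of which changed sign with 1 library left out. *Lama1* was at 74.0, 50.3 and 87.5 CPM in *Dmrt1*+/-, 82.5, 84.6 and 89.0 in null, 101, 97.9 and 81.4 in R111G/+ and 61.7, 90.2 and 70.4 in R111G/- gonads. *Itga6* was at 158, 137 and 140, then 237, 156 and 278, then 236, 187 and 209, and then 100, 177 and 85.0 CPM, and *Itgb1* between 621 and 882 in all 12 libraries. The groups overlapped for *Lama1* and *Itgb1*, and for *Itga6* in 2 of the 3 comparisons with *Dmrt1*+/-. The log2 fold change of *Itga6* against *Dmrt1*+/- was 0.63 in null (0.44 to 0.83 over the settings) and 0.54 in R111G/+ gonads (0.45 to 0.62). In R111G/- gonads it was -0.26 (-0.64 to -0.06). All of these were under 2-fold. The *Lamc1* share of gamma chains was 45.3% ± 4.9, 45.5% ± 2.9, 49.4% ± 3.5 and 43.5% ± 1.1 and the *Lamb1* share of beta chains 56.6% ± 0.3, 55.9% ± 2.6, 55.5% ± 0.4 and 55.8% ± 0.7 in the same order. The *Lama1* share of alpha chains was 18.8% ± 3.2 in *Dmrt1*+/-, 24.4% ± 1.0 in null, 26.7% ± 2.6 in R111G/+ and 23.6% ± 3.4 in R111G/- gonads. In all 3 comparisons it did not overlap with the same *Dmrt1*+/- libraries, again at the limit of the exact permutation test (p = 0.1).

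Whether the null effect differed between P3 and P28 was tested in a single fit of all 30 libraries. By TMM, 13 members had a null effect that was more positive at P28 and 3 more negative, against 23.9% and 26.2% of all genes, whereas on the somatic scale 14 passed, all of them more negative. *Itga5* differed by 2.96 on the log2 scale (SE 0.26, adjusted p = 1.31e-09), *Lama4* by 2.90 and *Itga6* and *Itga9* by 2.19 each, and these 4 differed by 0.97, 0.85, 0.15 and 0.19 on the somatic scale, where none passed. The R111G/+ effect was more positive at P28 for 6 members and more negative for 2, against 7.43% and 11.8% of all genes, and on the somatic scale 3 passed, all more negative. *Itga2* and *Itgae* were shared by both scalings. For either effect, the share of all genes that differed between the ages was not counted on the somatic scale.

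**Figure D5:**
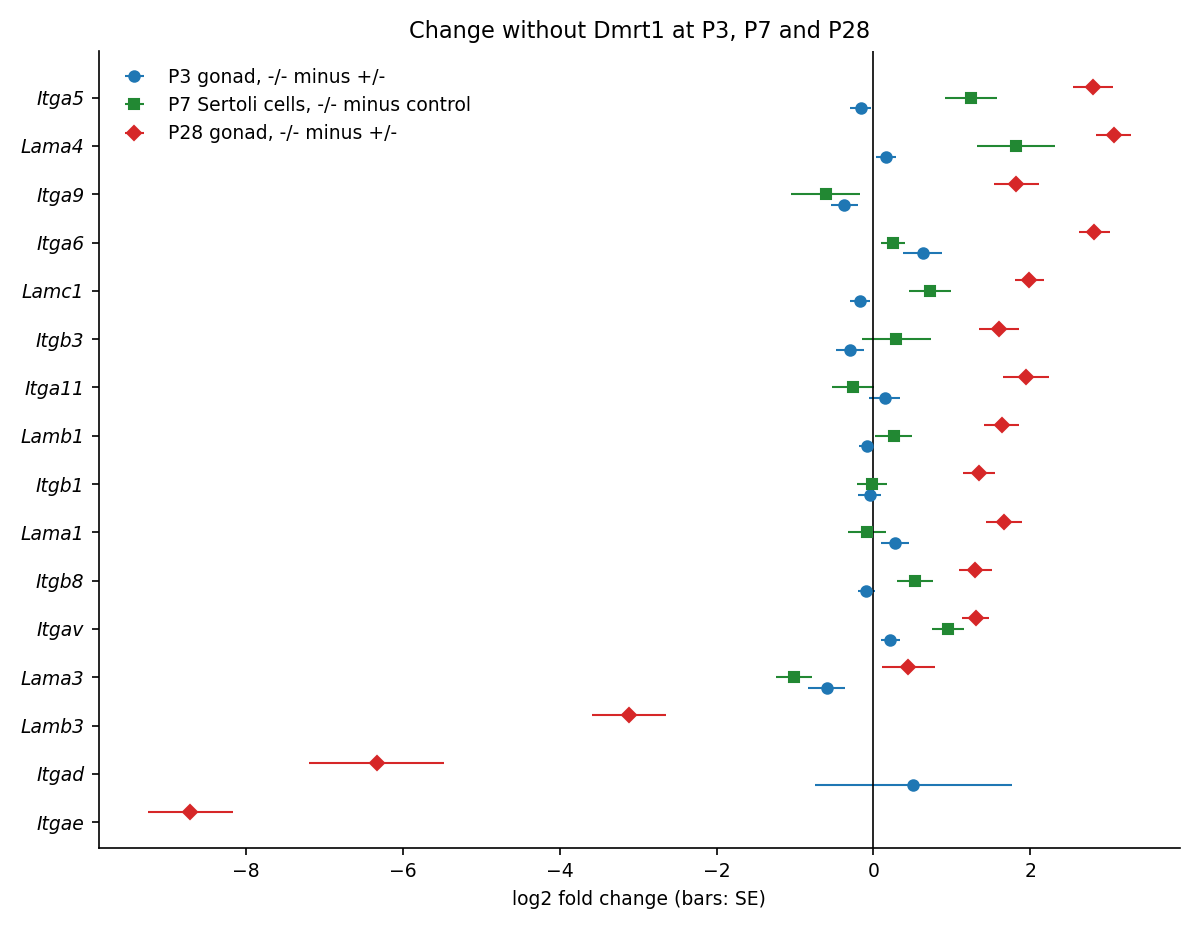
Log2 fold change (point) and its SE (line) without *Dmrt1* in P3 gonads, P7 Sertoli cells and P28 gonads, scaled by TMM, for the 16 members whose P28 and P3 effects differed; *Lamb3* and *Itgae* were not tested at P3 or P7 and *Itgad* not at P7. P3 points lie between -0.60 (*Lama3*) and 0.63 (*Itga6*). P28 points lie to the right of the P3 points for 13 members, with *Itga5* and *Lama4* at P7 in between. *Lama3*, at 0.44 at P28, is 1 of these 13. On the somatic scale none of these 13 passed as more positive at P28.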

How the data were processed

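The authors trimmed stranded reads with Trim Galore 0.6.0 and cutadapt 1.18, aligned them to GRCm38 with STAR 2.7.2a and deposited whole-number counts per gene for all 30 libraries. All 37 members had positions and exon lengths in GENCODE M21, as did 99.5% of the identifiers. Counts were tested with edgeR 4.0.16 (R 4.3.3, TMM, filterByExpr, quasi-likelihood test, Benjamini-Hochberg over all genes fitted), with 1 fit per age and groups as the only term. The test was also run on simulated counts. There most genes were unchanged and as many were raised as lowered, so the simulation cannot check the scaling of the P28 libraries. Levels per kb divide CPM by the exon union, and SEs were calculated back from the fold change and its F statistic, which makes them unreliable near 0 counts. The numbers of counts limit precision, and intervals cover counting error only. Every member was counted, and the values of 1 member are not reported here. The 3 genes that name the set and, in the main comparisons, up to 6 called members in each direction with no overlap and at least 5 CPM in the higher group were given library by library, with exceptions said beside them. From the partner lists up to 4 members with the smallest adjusted p were named. Members and lists were chosen with earlier results of these data known. Alternatives were DESeq2 1.42.0, its size factors, library totals, factors from the 4 somatic lists, no filter, a replicate block and each library left out.

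The authors also deposited, per the file headers, the anchor coordinates of interactions in P7 null Sertoli cells, another kind of value with no score; they were only counted. The ChIP-seq samples were not analysed here.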

Additional observations from a re-analysis of the deposited data

Results flagged for a closer look

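The effect of losing *Dmrt1* differed between P28 and P3 gonads for 16 members, by the test of the difference in log2 fold change (edgeR, 1 fit of all 30 libraries). It was more positive at P28 for *Itga5* (2.96), *Lama4* (2.90), *Itga9* (2.19), *Itga6* (2.19), *Lamc1* (2.16), *Itgb3* (1.90), *Itga11* (1.80), *Lamb1* (1.72), *Itgb1* (1.40), *Lama1* (1.39), *Itgb8* (1.39), *Itgav* (1.09) and *Lama3* (1.04). It was more negative for *Lamb3* (-2.25), *Itgad* (-6.80) and *Itgae* (-9.30). *Lamb3* and *Itgae* have few counts at P3 (at most 3.25 and 0.747 CPM in any library), so their differences rest on the P28 libraries. The R111G/+ effect differed between the ages for 8 members, namely *Itgb2* (1.96), *Itgb8* (1.76), *Lama3* (1.36), *Itgb3* (1.32), *Lamb1* (1.01), *Lamb2* (0.97), *Itga2* (-1.50) and *Itgae* (-2.89). When libraries were scaled on the 4 somatic lists, 3 of the 16 (*Itgad*, *Itgae* and *Lamb3*) and 2 of the 8 (*Itga2* and *Itgae*) kept a difference of the same sign that passed. Germ cell markers summed to 5865 to 21629 CPM in the P28 and 225 to 639 in the P3 *Dmrt1*+/- gonads, and the part of this gap was not tested.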

How the results depend on the processing

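Pooled over all alternatives, most values kept their direction and their side of the threshold, but on the somatic scale most did not. Of 1003 values of single members under alternatives, 894 did, 65 lost and 8 gained the call and 36 changed sign. Of 224 counts, 198 stayed within 1.5 times. The somatic lists kept 34 values of single members, while 23 lost the call and 22 changed sign. Leaving out 1 library kept 459, and 27 lost the call and 14 changed sign. The somatic lists moved 9 counts and kept 9, and leaving out 1 library moved 11 and kept 97. On the somatic scale members called higher and lower became 3 and 15 for null against wild-type, 3 and 13 for null against *Dmrt1*+/-, 1 and 9 for R111G/+ against *Dmrt1*+/-, 10 and 3 for R111G/+ against null, and 3 members differed between the ages in R111G/+. Over all genes the P28 counts on that scale were 710 and 15174, 675 and 14210, 91 and 9562, and 8903 and 863 in the same order. On that scale, null against wild-type was -0.13 for *Itgb1*, -0.050 for *Itgav*, -0.69 for *Itga4*, -0.25 for *Itgb3*, -0.94 for *Itgb5*, -0.075 for *Itgb8*, -1.10 for *Itga11*, -0.70 for *Itga3*, -0.50 for *Itgam*, -0.62 for *Itgb2*, -0.49 for *Lama3* and -0.86 for *Lama5*. Null against *Dmrt1*+/- was -0.20 for *Itgb1* and -0.26 for *Itgav* and *Itgb8*, R111G/+ against *Dmrt1*+/- -0.17 for *Itgb1*, and R111G/+ against null 0.033 for *Itgb1* and 0.10 for *Lama1*. At P3 that scale gave *Itgb1* 0.056 in null, -0.072 in R111G/+ and -0.11 in R111G/-, and *Lama1* -0.061 in R111G/-. Scaling on the library total called 13 members higher in R111G/+ against *Dmrt1*+/-, beside 2784 of all genes. With no filter 5 members were lower in R111G/+ against null, beside 1657 of all genes. With DESeq2 or no filter 2 were higher at P7 (*Lama4* beside *Lama5*), beside 535 and 711 of all genes. With the same settings 1 (*Itga8*) was lower in P3 null gonads, beside 73 and 175 of all genes. These causes were not tested.

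Leaving out 1 library gave 4 to 10 members higher in R111G/+ against *Dmrt1*+/-, beside 787 to 1806 of all genes. The lowest of both came without *Dmrt1*+/- replicate 1. At P7 0 to 2 members were higher and 0 to 1 lower, beside 121 to 574 and 153 to 415 of all genes. In P3 null gonads 0 to 1 members were lower, beside 24 to 58 of all genes. Signs of values near 0 changed in these runs. At P7 *Itgb1* ran from -0.20 to 0.11 and *Lama1* from -0.27 to 0.13. At P3 *Itgb1* ran from -0.16 to 0.049 in null, -0.088 to 0.12 in R111G/+ and -0.016 to 0.21 in R111G/-, and *Lama1* from -0.11 to 0.26 in R111G/-.

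Replicate numbers are shared by all groups. Residuals of same-numbered libraries correlated at -0.39 to 0.36 over 18 pairs at P28 and -0.29 to 0.24 over 18 at P3. These values had both signs, so no steady pairing was seen at those ages. At P7 the 3 pairs gave -0.04 to 0.50, too few to tell whether the numbers mark pairs. With a replicate block the members called higher and lower in the 5 comparisons at P28 were 19 and 3, 12 and 3, 0 and 0, 7 and 4, and 4 and 9. Over all genes they were 5444 and 8467, 4101 and 8064, 0 and 0, 1248 and 5689, and 5593 and 2105. At P7 they were 1 and 1 (*Lama4* called higher in place of *Lama5*), beside 352 and 283 of all genes. At P3 0 members were called, beside 20 and 38 genes in null, 9 and 5 in R111G/+ and 7 and 23 in R111G/- gonads. Between the ages 16 and 8 members differed.

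Depth limited low genes: 3 members at P28, 14 at P7 and 6 at P3 could not be tested, and the fitted fold changes of *Itgae* and *Itgad* in null gonads rest on 3 and 2 counts.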

Other observations

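*Itgad* varied within the genotypes of P3 gonads. Over the 12 libraries it ran from 0.124 to 9.03 CPM, with 6 libraries above 3 CPM and the others at or below 0.564, and both kinds occurred in *Dmrt1*+/- (0.255, 9.03 and 0.564 CPM), null (0.124, 8.94 and 4.91), R111G/+ (3.95, 4.02 and 0.460) and R111G/- gonads (0.264, 6.55 and 0.407).

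In the list of 4291 chromatin interactions of P7 null Sertoli cells, which has no control, 18 of the 37 members (48.6%) had a 10 kb anchor within their body or the 10 kb around it. The share was 26.9% of 21897 protein-coding genes and 38.7% of the 4737 between the quartiles of the members in length. The longest and shortest members lie outside that range, so these shares do not match the 37 members in length.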
